A study of Rattus norvegicus with 42 samples.

Results

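The cation-chloride cotransporters and their kinases were followed in hippocampal RNA of rat pups as 7 transcripts of 5 genes, chosen by gene symbol from the 15516 transcripts (14304 symbols) of the count table. The members were Slc12a2, Slc12a5, Slc12a7, Stk39 and Wnk1. Wnk1 had 3 transcripts and each other gene 1. All 7 transcripts had enough counts to be tested, as did 13062 transcripts in all. Male Sprague Dawley pups received a single intraperitoneal injection on postnatal day 7, of saline (VEH), of phenobarbital at 75 mg/kg (PB) or of levetiracetam at 200 mg/kg (LEV), and the hippocampus was taken 72 hours later, on postnatal day 10. Each library is 1 animal, and a litter gave 1 animal to each treatment for sequencing. Of 42 animals, 1 VEH animal is labelled as excluded and entered no comparison, which leaves 13 VEH animals to set beside 14 PB and 14 LEV animals. The sample codes take one form for animals 1 to 6 of each treatment and another for animals 7 to 14. These 2 series were used as the batch, and the labels do not say that they are the orders in which the animals were bought.

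Neurons set their chloride by the balance of carriers that bring it in and carriers that take it out. NKCC1, encoded by Slc12a2, loads chloride together with sodium and potassium, and KCC2, the neuron-specific carrier encoded by Slc12a5, removes it with potassium. In the first postnatal weeks of the rodent, KCC2 increases in the hippocampus and chloride in neurons falls, which changes the response to GABA from depolarizing to hyperpolarizing. PB acts at the GABA-A receptor, a chloride channel, and LEV binds the synaptic vesicle protein SV2A. WNK1 activates SPAK, the kinase encoded by Stk39, and SPAK phosphorylates the carriers, which activates NKCC1 and inhibits the KCCs. NKCC1 and SPAK are also abundant in the epithelium of the choroid plexus, which secretes cerebrospinal fluid and lies next to the hippocampus.

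None of the 7 transcripts differed between treatments at an adjusted p under 0.05 (quasi-likelihood test of edgeR, adjusted by Benjamini-Hochberg over all 13062 transcripts). This limit was passed by 5.39% of all tested transcripts for PB against VEH, 0.00766% for LEV against VEH and 4.45% for PB against LEV. At an unadjusted p under 0.05 the members counted 0 of 7 for PB against VEH, where 20.2% of all transcripts passed. They counted 0 of 7 for LEV against VEH, where 5.84% passed, and 2 of 7 for PB against LEV, where 19.6% passed. Those 2 were Slc12a5 and the rarest Wnk1 transcript, both lower after PB, and neither held after adjustment. DESeq2 also called 0 of 7 in each comparison and gave the rarest Wnk1 transcript no adjusted p in the comparisons of PB. The median log2 fold change of the 7 transcripts was 0.06 for PB against VEH, 0.06 for LEV against VEH and -0.04 for PB against LEV, and over all tested transcripts it was 0.00 in each.

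Libraries held from 9499494 to 14488125 rounded counts after VEH, from 9586785 to 13140891 after PB and from 10112029 to 12482916 after LEV. All 8 symbols of the hippocampal neuron markers were listed in the count table, and 8 of their 10 transcripts had enough counts to be tested. Spink8 and Lct had no tested transcript. VEH animal 1, male by the protocol as are the others, had 1 estimated count of the Y-linked Eif2s3y and 0 of the Y-linked Ddx3, while the lowest values in the other 12 VEH animals were 748 and 475. Without it, again 0 of the 7 transcripts were called in any of the 3 comparisons. Leaving it out moved the log2 fold change of Slc12a2 from 0.11 to 0.15 for PB against VEH and from 0.07 to 0.11 for LEV against VEH. Over the omission of each animal in turn, the value ran from 0.063 (without PB animal 5) to 0.15 for PB against VEH and from 0.021 (without LEV animal 9) to 0.11 for LEV against VEH. Normalized counts below are rounded counts scaled to the mean effective library size, given as mean ± SD, and levels are compared only between animals and not between genes. Each drug animal was also set against the mean normalized count of the control animals of its own series, called its matched control mean below, and SE is the standard error.

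Slc12a2 (NM_031798, rn6 chromosome 18, 52917124 to 52985262), the chloride loader, had normalized counts from 748 to 1189 with a median of 904 in VEH animals. In PB animals they ran from 776 to 1401 with a median of 918, and in LEV animals from 734 to 1400 with a median of 941. The ranges overlapped almost completely, and the highest PB and LEV animals stood above every VEH animal. Means were 919 ± 147 (n = 13), 994 ± 193 (n = 14) and 967 ± 211 (n = 14). The log2 fold change was 0.11 for PB against VEH (SE 0.10, 95% interval -0.09 to 0.30, adjusted p = 0.583) and 0.07 for LEV against VEH (SE 0.10, interval -0.13 to 0.26, adjusted p = 0.973). Of the 14 animals given each drug, 7 after PB and 8 after LEV were above their matched control mean.

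Slc12a5 (NM_134363, chromosome 3, 161433303 to 161465079), the chloride extruder, ran from 4889 to 6121 with a median of 5651 in VEH animals. In PB animals it ran from 4322 to 5841 with a median of 5450, and in LEV animals from 4580 to 6826 with a median of 5790. Again the 3 groups overlapped, and no PB animal exceeded 5841. The means were 5620 ± 317 after VEH, 5344 ± 448 after PB and 5780 ± 580 after LEV. The log2 fold change was -0.07 for PB against VEH (SE 0.05, interval -0.16 to 0.02, adjusted p = 0.405), with 9 of 14 PB animals under their matched control mean. It was 0.04 for LEV against VEH (interval -0.05 to 0.13, adjusted p = 0.949). PB against LEV gave the smallest unadjusted p among the members, with a log2 fold change of -0.11 (SE 0.04, interval -0.20 to -0.02, unadjusted p = 0.0160, adjusted p = 0.142). In that comparison 12 of 14 PB animals were under the matched LEV mean. Over the omission of each animal in turn, this difference ran from -0.13 to -0.09. The lowest adjusted p of these fits was 0.0502, without LEV animal 8, the lowest of its group.

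The balance of the opposing carriers was described by the log2 ratio of Slc12a5 to Slc12a2 counts in each animal, without a test. It had a mean of 2.63 ± 0.24 after VEH, 2.45 ± 0.33 after PB and 2.60 ± 0.41 after LEV. The lowest values were 2.24 (VEH animal 1), 1.82 (PB animal 8) and 1.73 (LEV animal 8), and the highest were 2.92, 2.85 and 3.15. The ranges of the 3 treatments overlapped. After LEV the mean was 2.79 in the first series and 2.46 in the second, so that it lay above the VEH mean of 2.65 and below the VEH mean of 2.60, respectively. Counts of different transcripts depend on their lengths, so only the differences of this ratio between animals can be read.

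Slc12a7 (NM_001013144, chromosome 1, 32086755 to 32140138) encodes KCC4, another potassium-chloride carrier that takes chloride out of cells. Its normalized counts ran from 126 to 228 in VEH, from 141 to 219 in PB and from 117 to 228 in LEV animals, with medians of 158, 162 and 177. The 3 ranges nearly coincided. The log2 fold change was 0.06 for both drugs against VEH, with 95% intervals of -0.13 to 0.26 for PB and -0.13 to 0.25 for LEV (adjusted p = 0.762 and 0.978, edgeR), and it was 0.00 between PB and LEV.

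Stk39 (NM_019362, chromosome 3, 54359451 to 54625415), the kinase SPAK that acts on all 3 carriers, ran from 721 to 1136 with a median of 834 in VEH animals. It ran from 719 to 1276 with a median of 831 in PB animals and from 743 to 1490 with a median of 971 in LEV animals. LEV animal 8 was the highest of the 41 animals for this transcript. The means were 861 ± 120, 939 ± 203 and 965 ± 194. The log2 fold change was 0.12 for PB against VEH (SE 0.10, interval -0.07 to 0.31, adjusted p = 0.517) and 0.16 for LEV against VEH (SE 0.10, interval -0.03 to 0.35, adjusted p = 0.856).

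Wnk1, the kinase that activates SPAK, was represented by 3 transcripts with the same span (chromosome 4, 152452848 to 152578404), among which the authors' algorithm divided shared reads, so that each count is uncertain. The main one, NM_053794, held 84.7% ± 2.56 of the Wnk1 counts after VEH, 85.7% ± 3.40 after PB and 84.1% ± 3.97 after LEV. Its normalized counts ran from 1366 to 1701 in VEH, from 1384 to 1715 in PB and from 1379 to 1703 in LEV animals. The log2 fold change was 0.06 for PB against VEH (SE 0.03, interval -0.01 to 0.13, adjusted p = 0.318, 10 of 14 PB animals above their matched control mean). For LEV against VEH it was 0.01 (interval -0.06 to 0.07).

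The second Wnk1 transcript, NM_001002823, ran from 175 to 359 in VEH, from 109 to 342 in PB and from 171 to 481 in LEV animals. Of the members it had the smallest p for a drug difference that was not the same in both series. Against VEH, LEV gave -0.32 on the log2 scale in the first series and 0.35 in the second, a difference of 0.67 (SE 0.26, unadjusted p = 0.0123, adjusted p = 0.228). Over all transcripts, 0.842% differed between the series in their response to LEV at an adjusted p under 0.05, and 0.0689% in their response to PB, and 0 of the 7 members did in either case. The third transcript, NM_001199095, had between 1 and 23 rounded counts per animal and less than 1% of the Wnk1 counts in the mean of each treatment. It averaged 8.77 ± 6.88 after VEH, 4.97 ± 3.12 after PB and 9.23 ± 7.26 after LEV. The medians were 4.77, 3.94 and 8.06, so that the VEH mean lay well above the VEH median. Its log2 fold change was -0.77 for PB against VEH (SE 0.41, interval -1.59 to 0.05, adjusted p = 0.289), with 13 of 14 PB animals under their matched control mean. Against LEV it was -0.88 (SE 0.40, unadjusted p = 0.0327, adjusted p = 0.205). The wide intervals go with these low counts. With the 3 transcripts summed, the Wnk1 log2 fold change was 0.04 for PB against VEH and 0.02 for LEV against VEH.

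**Figure D1:**
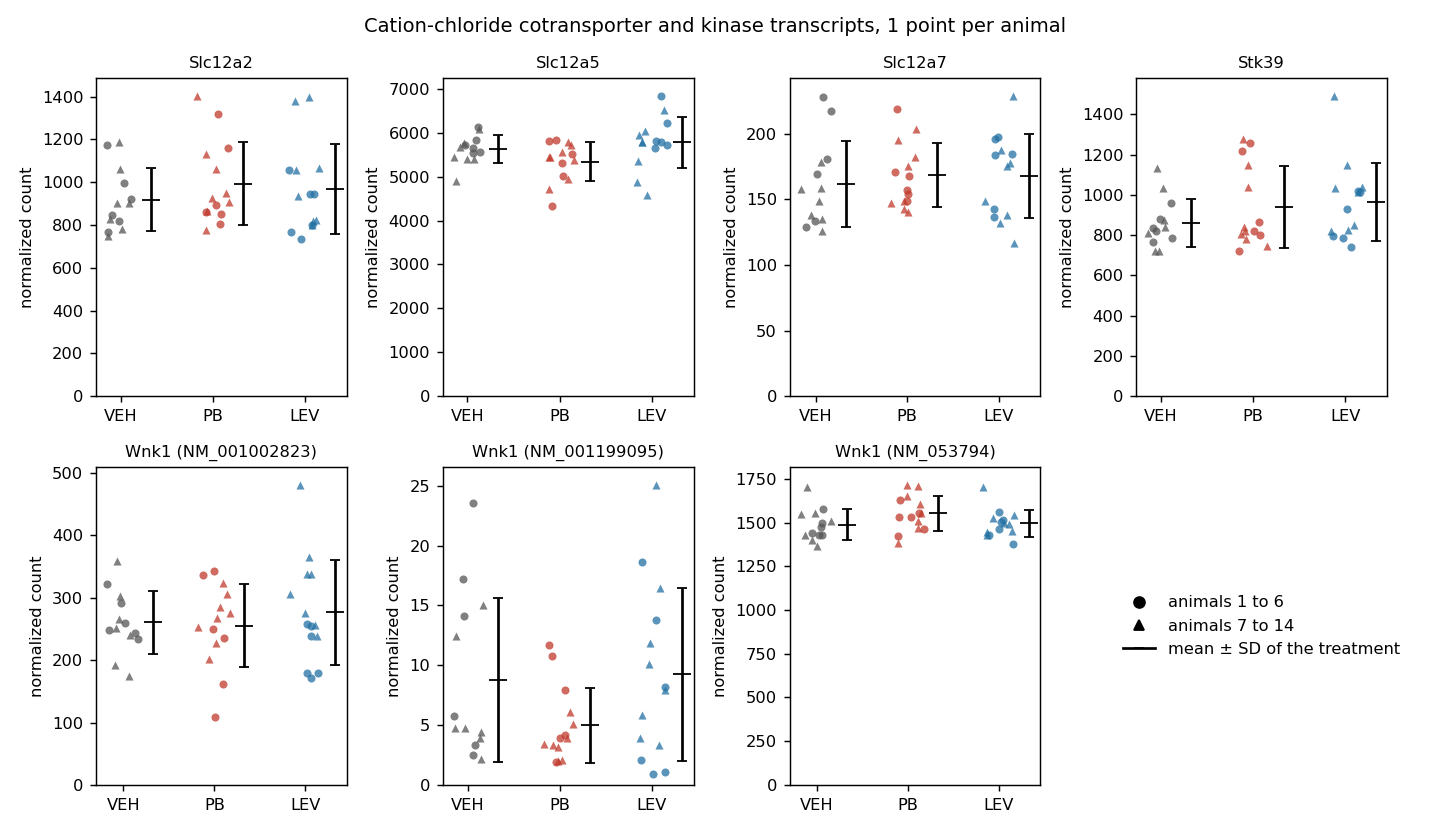
Normalized counts (vertical axis, linear from 0) of the 7 transcripts in each of the 41 animals, by treatment, with circles for animals 1 to 6, triangles for animals 7 to 14, and bars for the mean ± SD. The 3 treatments overlap in every panel, and the highest Stk39 value is that of LEV animal 8 at 1490.

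**Figure D2:**
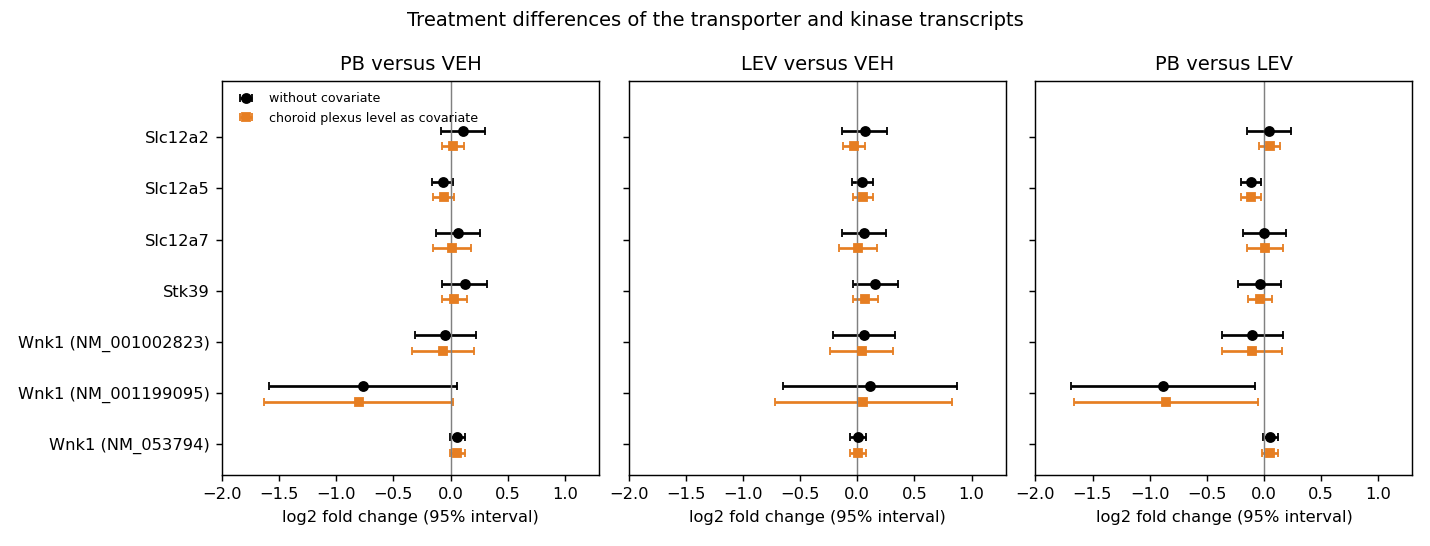
Log2 fold changes (horizontal axis) with 95% intervals of the 7 transcripts in the 3 comparisons, without a covariate (black circles) and with the choroid plexus level as a covariate (orange squares). For Slc12a2 and Stk39 the intervals are narrower with the covariate, for example -0.07 to 0.12 in place of -0.09 to 0.30 for Slc12a2 in PB against VEH.

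Across animals, Slc12a2 and Stk39 rose and fell together. With the treatment and series means removed from log2 CPM (log2 of counts scaled to library size), their correlation over the 41 animals was r = 0.88 and rho = 0.84 (two-sided permutation tests within treatment and series, p = 1e-05 for both, the lowest value possible with 100000 permutations; adjusted p = 0.00021 over 21 pairs of members). Without the 2 animals farthest from the median (LEV animals 8 and 9) r was 0.88. By series it was 0.89 (first) and 0.88 (second), and 0.82, 0.89 and 0.93 within VEH, PB and LEV animals. Without VEH animal 1 it was 0.88. The carrier and the kinase that activates it had a shared order of animals in each treatment.

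Slc12a2 also varied with Slc12a7 (r = 0.44, rho = 0.48, permutation adjusted p = 0.0442 and 0.0291), with r = 0.47 without LEV animals 8 and 9, and 0.41 and 0.47 in the first and second series. That relation was weak within VEH animals (r = 0.17) and stronger within PB (0.68) and LEV (0.47) animals. Slc12a5 ran against Slc12a2 with r = -0.44 and rho = -0.41, which did not hold after adjustment (permutation adjusted p = 0.0578 and 0.0875). It was -0.22 in the first series and -0.57 in the second, and -0.33 without LEV animals 8 and 9. That relation was near 0 within VEH animals (r = -0.01), and was -0.40 within PB and -0.66 within LEV animals. Slc12a5 ran against the second Wnk1 transcript with r = -0.47 (permutation adjusted p = 0.0396), but not past the limit by rank (rho = -0.36, adjusted p = 0.0949), with -0.57 and -0.38 in the first and second series, 0.04, -0.56 and -0.63 within VEH, PB and LEV animals and -0.39 without PB animal 2 and LEV animal 8.

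The transcripts most like each member over the 41 animals were read from the same residuals, as a description. For Slc12a2 they were Igsf1 (r = 0.93), Ctsc (0.92) and Enpp2 (0.91), and for Stk39 they were Calml4 (0.93), Kcne2 (0.91) and Cldn1 (0.91). Enpp2, Calml4 and Kcne2 are on the list of choroid plexus markers. For Slc12a5 they included the potassium channel gene Kcnc4 (0.88) and Dlg4 (0.87), which encodes the postsynaptic scaffold PSD-95. Slc12a7 was most like Tcn2 (0.66), Ccdc187 (0.64) and Crocc (0.63). The 3 Wnk1 transcripts had no close neighbours. NM_053794 was most like Lrp6 (0.63), Phf3 (0.61) and Mbtps2 (0.61), and NM_001002823 like Plekha3 (0.66), Ctbp2 (0.61) and Rars2 (0.59). For NM_001199095 the nearest were Tlcd5 (0.52), Efna5 (0.52) and Fmo5 (0.50).

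Choroid plexus transcripts differed widely between libraries of the same treatment. All 16 choroid plexus markers were listed and none was at 0 in every animal of a treatment. Ttr, the transthyretin gene, highly expressed in choroid plexus epithelium, ran from 9.21 to 51024 normalized counts in VEH animals, from 26.7 to 81378 in PB and from 20.9 to 56646 in LEV animals. The summed level of the 16 markers ran from 480 to 57902 (median 3381) in VEH, from 434 to 90688 (median 9410) in PB and from 548 to 68405 (median 23988) in LEV animals. Of 17 tested transcripts of the list, 0 were called in any comparison. The log2 fold change against VEH was above 0 for 17 of 17 after each drug, with a median of 0.60 for PB and 0.67 for LEV. Otx2 is listed at 2 places with identical values and counts as 2 of the 17. The matched control mean is a high mark for these markers, because a few VEH animals had large values. In the second series the summed level of VEH animals ran up to 48889, with a mean of 12229 and a median of 626. Counts of animals above that mean therefore do not tell how many exceeded a typical VEH animal. From 5 (Ttr among others) to 10 (Prlr) of 14 PB animals were above their matched control mean. After LEV it was from 6 (Slc13a4) to 8 (Ttr among others) of 14. In whole tissue, more cells of a type and more RNA per cell cannot be told apart.

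Slc12a2 and Stk39 followed that level closely. The mean log2 CPM of the markers was spread from -0.07 to 5.62 over the 41 animals, with a largest gap of 0.60 between neighbouring animals. With treatment and series means removed, Slc12a2 had r = 0.88 and rho = 0.91 with it, and Stk39 r = 0.84 and rho = 0.83 (permutation p = 1e-05 for each, the smallest possible; adjusted p = 0.000105 over 21 relations of 7 transcripts with 3 marker lists). Without LEV animal 12 and PB animal 2, the farthest from the median, r was 0.89 and 0.83. Within VEH, PB and LEV animals it was 0.90, 0.87 and 0.88 for Slc12a2 and 0.78, 0.87 and 0.88 for Stk39. Within animals 1 to 6 and animals 7 to 14 it was 0.88 and 0.89 for Slc12a2 and 0.87 and 0.83 for Stk39. Without VEH animal 1 it was 0.88 and 0.84. The slope was 0.11 for Slc12a2 and 0.10 for Stk39, in log2 units of the transcript per log2 unit of the markers, whose level ran from -0.07 to 5.62. Slc12a7 followed the markers less closely (r = 0.54, rho = 0.51, permutation adjusted p = 0.00299 and 0.00683), with 0.51 without the same 2 animals 0.61 without VEH animal 1, 0.49 and 0.57 in the first and second series, and 0.31, 0.71 and 0.60 within VEH, PB and LEV animals. The Slc12a5 transcript had r = -0.22 with the markers (permutation adjusted p = 0.42), and the 3 Wnk1 transcripts had r between -0.01 and 0.14. With a straight-line fit on the marker level removed from both, the correlation of Slc12a2 with Stk39 was 0.55 and that of Slc12a2 with Slc12a7 was -0.09. That of Slc12a2 with Slc12a5 went from -0.44 to -0.54. Any curved dependence on the marker level stays in these values, so they do not show a relation apart from it.

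**Figure D3:**
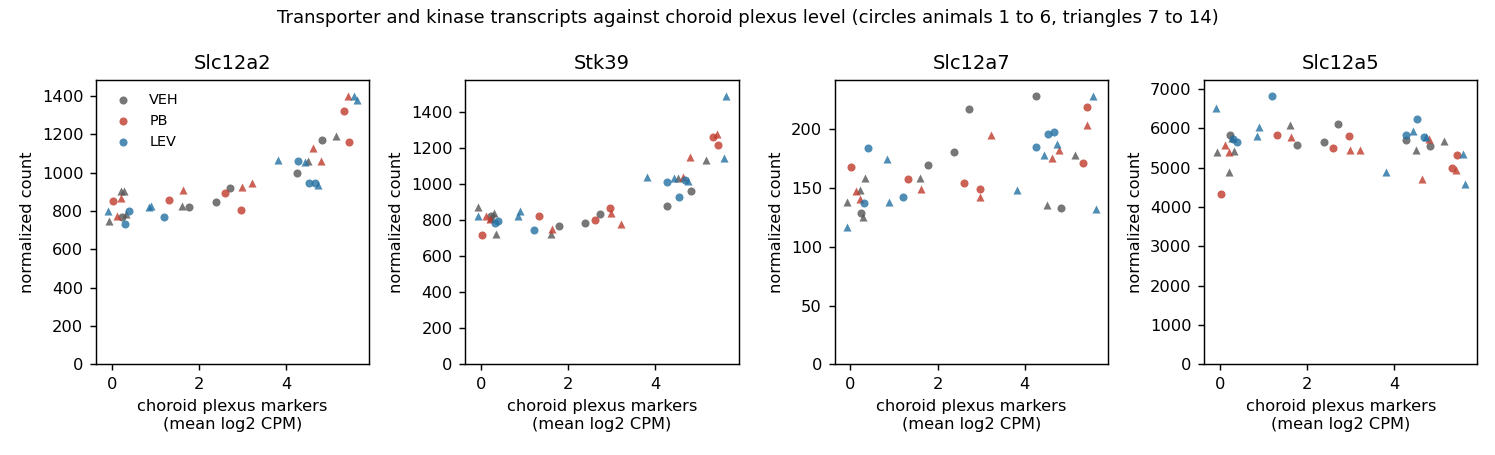
Normalized counts of 4 transcripts (vertical axis, linear from 0) against the mean log2 CPM of the choroid plexus markers (horizontal axis), 1 point per animal and colours by treatment. Slc12a2 (r = 0.88) and Stk39 (r = 0.84) lie level on the left and rise on the right of their panels, Slc12a7 is more scattered (r = 0.54), and Slc12a5 shows no rise (r = -0.22).

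With the marker level added to the model as a covariate, the Slc12a2 difference was 0.02 for PB against VEH (SE 0.05, interval -0.07 to 0.12) and -0.03 for LEV against VEH (SE 0.05, interval -0.12 to 0.07). Stk39 had 0.03 for PB (interval -0.08 to 0.14) and 0.07 for LEV (interval -0.04 to 0.18). The standard errors were about 0.05 in place of 0.10, and the estimates lay nearer to 0. Slc12a5 had -0.06 for PB against VEH and -0.11 for PB against LEV (unadjusted p = 0.0147, adjusted p = 0.131, edgeR). Again 0 of the 7 transcripts were called in each comparison, where 5.7% of all transcripts passed for PB against VEH, 0.0153% for LEV against VEH and 4.77% for PB against LEV.

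The sequences just upstream of Slc12a2, Stk39 and Slc12a5 are shown because the first pair varied together and Slc12a5 did not rise with them. They are the 250 bases before the annotated start in RefSeq (GRCr8), 5′ to 3′ on the strand of the gene, at chr18:53546083-53546332 (+), chr3:73586980-73587229 (-) and chr3:174115583-174115832 (+). Capitals mark the letters GGGCGG or their reverse complement CCGCCC, the GC box to which SP1 family factors can bind.
Slc12a2: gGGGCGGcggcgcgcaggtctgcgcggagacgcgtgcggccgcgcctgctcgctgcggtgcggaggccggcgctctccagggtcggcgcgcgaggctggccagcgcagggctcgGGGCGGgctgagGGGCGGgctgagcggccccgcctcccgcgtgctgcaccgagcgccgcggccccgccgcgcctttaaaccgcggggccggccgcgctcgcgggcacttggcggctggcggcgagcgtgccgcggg
Stk39: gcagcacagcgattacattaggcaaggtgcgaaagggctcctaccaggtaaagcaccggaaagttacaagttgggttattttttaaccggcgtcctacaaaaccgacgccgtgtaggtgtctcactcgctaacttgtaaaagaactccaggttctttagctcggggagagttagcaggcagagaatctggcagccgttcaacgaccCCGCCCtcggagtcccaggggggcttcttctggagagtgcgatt
Slc12a5: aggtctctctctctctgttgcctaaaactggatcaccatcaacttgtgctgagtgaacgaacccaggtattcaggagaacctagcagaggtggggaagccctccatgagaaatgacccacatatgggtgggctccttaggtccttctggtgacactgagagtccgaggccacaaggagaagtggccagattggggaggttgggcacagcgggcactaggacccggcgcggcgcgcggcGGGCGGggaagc
The Slc12a2 window held 3 GC boxes, 48 CpG and 83.2% G and C, the Stk39 window 1 GC box, 15 CpG and 53.2%, and the Slc12a5 window 1 GC box, 11 CpG and 59.2%. Windows of the other 2 genes held 9 GC boxes (Slc12a7, overlapping matches included) and 0 (Wnk1). Of 33469 such windows of all genes, 30.5% held a GC box, and the median window had 51.2% G and C and 5 CpG. TATAAA was in none of the 5 windows and in 12.9% of all windows on either strand, and CCAAT was in those of Slc12a5 and Wnk1 and in 34% of all windows. These matches only describe the letters of the windows.

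Slc12a5 varied with the mature neuron markers. Its correlation with their mean log2 CPM was r = 0.65 and rho = 0.53 (permutation p = 2e-05 and 0.00073, adjusted p = 0.00014 and 0.00511). It was 0.51 without PB animals 2 and 7, the farthest from the median, 0.44, 0.86 and 0.64 within VEH, PB and LEV animals, and 0.76 and 0.66 within animals 1 to 6 and 7 to 14. The neuron markers themselves differed after PB. Of 16 tested transcripts, 6 fell for PB against VEH, where 3.46% of all transcripts were called lower, and for PB against LEV 9 fell and 1 rose, where 2.78% were called lower and 1.67% higher. For PB against LEV, Camk2b had 1 transcript that rose and 1 that fell. In that comparison Syn1 counts as 2 of the transcripts that fell, as does Snap25, whose 2 transcripts had identical values. Eno2 is listed at 2 places and counts as 2 of the transcripts that fell in each comparison. Examples are the synaptic vesicle gene Syn1 (NM_001110782, log2 fold change -0.30 for PB against VEH, SE 0.06, adjusted p = 0.00182) and the neurofilament gene Nefl (-0.29, SE 0.06, adjusted p = 0.00584). The summed level of the mature neuron markers ran from 75991 to 85171 in VEH, from 56438 to 82362 in PB and from 72234 to 88142 in LEV animals. The lowest PB and LEV animals thus stood below every VEH animal. The PB median of 72726 was also below every VEH animal, and the LEV median of 79040 was not. With the mean log2 CPM of these markers as a covariate, Slc12a5 had 0.05 for PB against VEH (interval -0.04 to 0.14) and 0.00 for PB against LEV (interval -0.09 to 0.08). Part of the transcripts that make up this covariate had themselves fallen after PB. In that model 0.161% of all transcripts were called for PB against VEH, 0.00766% for LEV against VEH and 0.0612% for PB against LEV. The part that neurons had in the Slc12a5 values was not tested.

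The 15 tested transcripts of oligodendrocyte markers come from 10 genes, and Mbp counts as several of them. Their log2 fold changes for LEV against VEH were above 0 (15 of 15, with 0 called). The mean level of these markers varied with Slc12a2 at r = 0.42 and rho = 0.47 (permutation adjusted p = 0.0292 and 0.00958), and r was 0.35 without PB animals 2 and 5. That relation was 0.56 in the first series and 0.29 in the second. Their part in the Slc12a2 values was not tested. For PB against VEH, where 1.93% of all transcripts were called higher and 3.46% lower, 1 of 15 oligodendrocyte transcripts fell. Among the other cell type lists, the calls in that comparison were 2 of 7 higher for immature neurons, 2 of 8 lower for hippocampal neurons (both are Fibcd1, which is listed at 2 places, so that 1 gene is counted 2 times), 1 of 7 higher for oligodendrocyte precursors, and 1 higher and 3 lower of 17 for astrocytes. Microglia (8 tested), endothelium and mural cells (8) and ependyma and cilia (6) had 0 calls in that comparison. Skeletal muscle markers fell in 4 of 4 tested (of 17 listed transcripts), among them Pvalb, which is also a marker of hippocampal interneurons. From 9 (Atp2a1) to 13 (Pvalb) of 14 PB animals were under their matched control mean. The mean summed level of the muscle markers differed between the series. It was 452 after VEH, 188 after PB and 467 after LEV in the first series, and 201, 141 and 192 in the second. For PB against LEV, where 1.67% of all transcripts were called higher and 2.78% lower, the calls were 3 of 7 higher for immature neurons, 1 of 8 higher for hippocampal neurons, 2 of 15 lower for oligodendrocytes, 1 higher and 1 lower of 17 for astrocytes, 1 of 8 lower for endothelium and mural cells, 4 of 4 lower for skeletal muscle, and 0 for the others. Calls of 1 transcript in a list are too few to be read against these shares. For LEV against VEH, 0 transcripts of any of these lists were called.

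The other genes of the pathway gave few calls. Of the other Slc12 carriers, 4 transcripts were tested and 0 called in any comparison. Slc12a4, which encodes KCC1, had 406 ± 73.0 after VEH, 440 ± 97.8 after PB and 453 ± 72.7 after LEV, with log2 fold changes of 0.11 for PB and 0.15 for LEV (SE 0.10 for both). It encodes a carrier that removes chloride, and it did not pass the limit.

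Of the other WNK and SPAK pathway genes, 11 transcripts were tested and 0 called. Oxsr1, which encodes OSR1, the close relative of SPAK, had 1128 ± 97.1 after VEH, 1186 ± 65.0 after PB and 1180 ± 72.0 after LEV. Its log2 fold change was 0.07 for PB (SE 0.04, adjusted p = 0.289, 13 of 14 PB animals above their matched control mean) and 0.06 for LEV. Wnk2 had 0.03 for PB and -0.01 for LEV, and Cab39, which encodes the SPAK-binding scaffold MO25, had -0.06 and -0.03. Wnk3, a further kinase of the family, had the smallest adjusted p of the list, with 146 ± 23.2 after VEH, 165 ± 31.5 after PB and 134 ± 22.1 after LEV. For PB against LEV its log2 fold change was 0.30 (SE 0.09, adjusted p = 0.0517), with 13 of 14 PB animals above the matched LEV mean.

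Among 20 tested transcripts of KCC2 regulators, 1 fell for PB against VEH and 1 for PB against LEV, which is near the 3.46% and 2.78% of all transcripts called lower and is not a result about the list. Epb41l1 (NM_172090), which encodes the cytoskeletal protein 4.1N that interacts with KCC2, had 9609 ± 550 in VEH and 8964 ± 679 in PB animals, which is -0.11 on the log2 scale (SE 0.02, adjusted p = 0.0046), with 13 of 14 PB animals under their matched control mean. For LEV against VEH it had -0.04 (SE 0.02, adjusted p = 0.844), and 13 of 14 LEV animals were also under their matched control mean. Ckb, the brain creatine kinase, which binds KCC2, fell for PB against LEV by 0.13 on the log2 scale (SE 0.04, adjusted p = 0.0293). Among 18 tested transcripts of other chloride and bicarbonate routes 0 were called. Car7, the neuronal carbonic anhydrase, had 135 ± 23.2 after VEH, 118 ± 21.4 after PB and 144 ± 25.0 after LEV, with -0.18 for PB against VEH (adjusted p = 0.264) and -0.28 for PB against LEV (adjusted p = 0.0639).

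The sodium and potassium gradients that drive all these carriers are made by the Na,K-ATPase, whose beta subunit gene Atp1b1 fell after PB. Its normalized counts were 24100 ± 857 after VEH, 21602 ± 1623 after PB and 24426 ± 1616 after LEV. Atp1b1 fell by 0.16 against VEH (SE 0.03, adjusted p = 0.0051) and by 0.18 against LEV (adjusted p = 0.0018), with 14 of 14 PB animals under the matched LEV mean. For LEV against VEH 0 of 6 tested subunit transcripts were called. The fold changes of Epb41l1, Ckb and Atp1b1 were small, and mature neuron markers fell in the same comparisons. The part of neurons in these values was not tested.

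**Figure D4:**
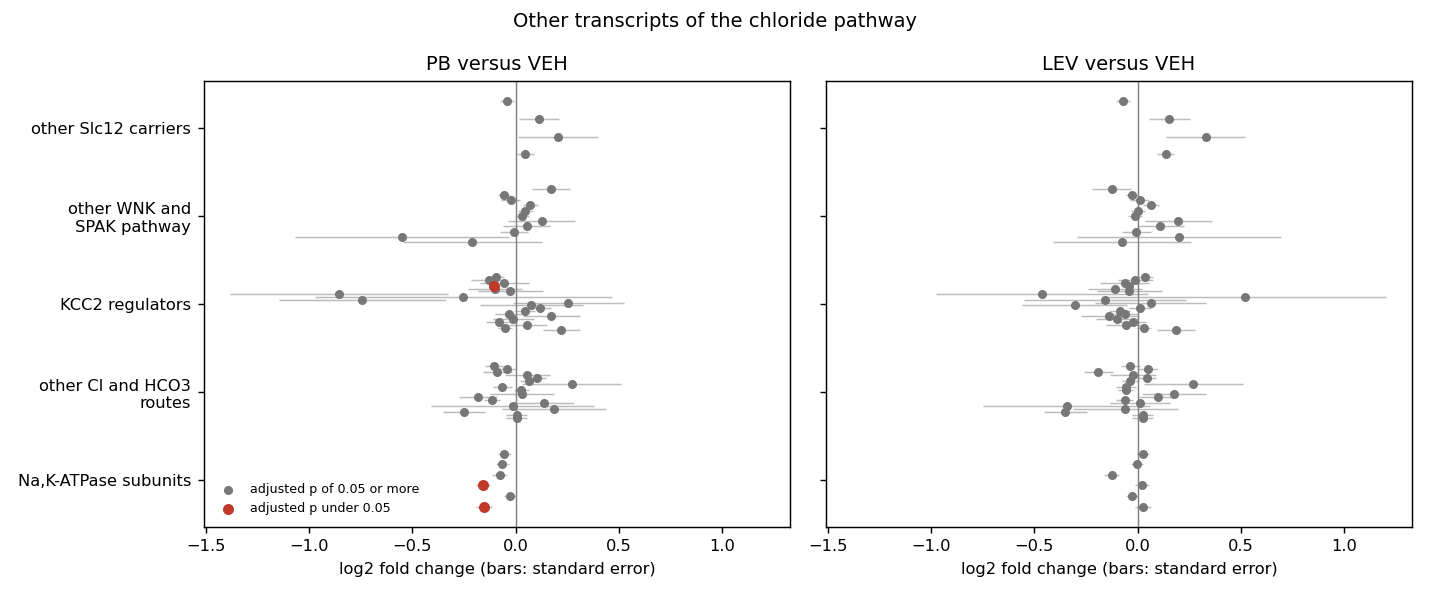
Log2 fold changes (horizontal axis, bars give the standard error) of the tested transcripts of 5 lists around the transporters, for PB against VEH on the left and LEV against VEH on the right, with red points for an adjusted p under 0.05. The red points on the left include Epb41l1 (-0.11) and Atp1b1 (-0.16), and there are 0 on the right.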

How the data were processed

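Per the labels and the methods, the authors trimmed the reads, aligned them to rn6 with STAR 2.7.3a and divided them among RefSeq transcripts with Partek's E/M algorithm. The deposited values are these estimated counts, without normalization, and 13.7% are not whole. A deposited table of the authors' own DESeq2 comparisons was not used. The counts were rounded, normalized by TMM and filtered by filterByExpr with edgeR 4.0.16 in R 4.3.3. One quasi-likelihood model held the 3 treatments and the series of the sample codes. P-values were adjusted by Benjamini-Hochberg over 13062 transcripts, and 0.05 was the limit. Standard errors are the fold change divided by the root of F, and 95% intervals use the degrees of freedom of the model. Correlations used residual log2 CPM (prior count 2) and 100000 permutations. The tests were checked on simulated data. DESeq2 1.42.0 was an alternative. The members, lists and covariates were chosen with earlier results of these data known. Named transcripts are all members, Ttr, the main relatives of each gene family, other list genes with an adjusted p under 0.05, and the 3 most similar to each member. Some transcripts that this rule names are not reported here. Syn1 and Nefl were chosen after their values were seen. Upstream windows come from RefSeq (GRCr8), with all 5 genes matched. Each library had 9499494 to 14488125 rounded counts.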

Additional observations from a re-analysis of the deposited data

Results flagged for a closer look

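In PB animals 1 to 6, animal 3 stood apart for Slc12a7, with a normalized count of 219. In LEV animals 7 to 14, animal 8 stood apart for the main Wnk1 transcript NM_053794, with 1703. These are 2 of 42 sets of 1 transcript, 1 treatment and 1 series that were looked at with Dixon's test, and chance alone gives about 1 in 20.

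The VEH animal labelled as excluded, which entered no comparison, had higher values than any of the 13 VEH animals for 3 transcripts. On a scale that includes it, Slc12a5 was at 6111 against a highest VEH value of 6108, Slc12a7 at 285 against 228, and Wnk1 NM_001199095 at 27.2 against 23.5. Its other 4 member transcripts lay within the VEH range.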

How the results depend on the processing

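The count of called members was 0 in each comparison under each of the 58 alternatives, in which DESeq2, other size factors, filters, batch terms, sample sets, dispersions, summed counts, 2 covariates and 41 fits leaving out 1 animal were used. The count of members that differed between series was 0 under each of 5 alternatives. The filter at a mean of 50 counts and some other fits left Wnk1 NM_001199095 untested. With the animal number as a replicate block 0 members were called, and Slc12a5 had -0.11 for PB against LEV (adjusted p = 0.133). Animals with the same number did not deviate together (10 of 40 pairs had r above 0.1, range -0.33 to 0.33, and 2 correlated best with their own number), so the numbers were not read as pairs. The adjusted p of Slc12a5 for PB against LEV ranged from 0.0502 (without LEV animal 8) to 0.996 (mature neuron covariate).

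Log2 fold changes near 0 changed sign, and the causes were not tested. In animals 1 to 6 alone, LEV against VEH gave -0.068 for Slc12a2, -0.015 for Slc12a7, -0.32 for Wnk1 NM_001002823 and -0.51 for NM_001199095. There PB against VEH gave -0.054 for Slc12a7, and PB against LEV gave -0.039 for Slc12a7, 0.10 for Stk39 and 0.16 for NM_001002823. In animals 7 to 14 alone, NM_001002823 had 0.070 for PB against VEH and Slc12a2 had -0.046 for PB against LEV. With all 14 VEH animals, Slc12a7 had -0.019 for PB and -0.023 for LEV against VEH, and LEV against VEH gave -0.11 for NM_001199095 and -0.0023 for NM_053794. Slc12a7 for PB against LEV had -0.00079 with a series-by-treatment term and -0.0033 after subtraction of series effects. With the choroid plexus covariate Slc12a2 had -0.026 for LEV against VEH. With the mature neuron covariate PB against VEH gave -0.013 for Slc12a2, -0.0127 for Slc12a7 and 0.052 for Slc12a5, and PB against LEV gave -0.0638 for Slc12a2 and -0.0639 for Slc12a7.

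Leaving out 1 animal changed the sign of some values. For PB against LEV the ranges were -0.026 to 0.052 for Slc12a7, -0.0024 to 0.088 for Slc12a2 and -0.081 to 0.020 for Stk39. For NM_001002823 they were -0.10 to 0.018 for PB against VEH and -0.012 to 0.098 for LEV against VEH, and for NM_053794 -0.0083 to 0.022 for LEV against VEH. Depth limits NM_001199095 most, with 1 to 23 counts per animal.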
